A study of Mus musculus with 8 samples.

Results

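The 32 genes described here make up the core of the ER-associated degradation (ERAD) machinery in mouse plasma cells. They were taken from a list chosen with earlier results of these data known, and matched by gene identifier in a count table of 27179 genes. All 32 were found, 31 by the gene symbols deposited with the data and Fam8a1 through the RefSeq gene table. By the step they serve, 6 genes belong to recognition of misfolded glycoproteins, 15 to the membrane ligase and its channel, 9 to extraction from the membrane and 2 to deglycosylation and delivery to the proteasome. RNA came from bone marrow plasma cells of C57BL/6 mice, which in every group were sorted for the Blimp1-GFP reporter and surface CD138. The 8 libraries comprised wild type (WT) replicates 1 and 2 and 2 Blimp1-/- libraries (Blimp1KO) in batch 1, and WT replicates 3 and 4 and 2 Xbp1-/- libraries (Xbp1KO) in batch 2. The labels do not state the age of the mice, the deleted exons, the Cre driver or when deletion took place. The names under which the per-sample files were deposited mention a CreER allele for all 4 libraries of batch 2, WT included, and a plus/minus or positive/negative state for WT of batch 1. The labels call these libraries wild type, so whether the controls carried such alleles is not known here, and WT means the library's label. The series calls the replicates biological, but no label ties a library to an animal, so p-values measure the spread between these libraries.

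ERAD removes proteins that fail to fold in the endoplasmic reticulum (ER). Mannosidases and lectins mark and read the glycans of a failed protein, a membrane ubiquitin ligase complex passes it to the cytosol, and the ATPase p97, encoded by Vcp, pulls it out for the proteasome. Plasma cells secrete antibody in bulk and are known for a large ER. XBP1, the transcription factor made by splicing through the sensor IRE1, is a known activator of many ERAD genes, and Blimp1 (gene symbol Prdm1) is a known regulator of the secretory programme in these cells. Each knockout was compared with WT libraries of its own batch, which asks how far the ERAD genes depend on either factor in sorted plasma cells.

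Libraries held 44012152 to 145411827 counts, of which 25.2% to 75.7% fell on immunoglobulin genes. This share went with genotype. It was 55.4% and 58.4% in Blimp1KO against 75.7% and 75.6% in WT, and 30.0% and 25.2% in Xbp1KO against 69.7% and 64.8% in WT. Whole-gene counts do not test the genotype: Prdm1 stood at 243 and 176 counts per 1000000 counts of the scaled library (CPM) in Blimp1KO against 301 and 306 CPM in WT, and Xbp1 stood at 1302 and 1105 CPM in Xbp1KO against 2129 and 2203 CPM in WT. In Blimp1KO, Xbp1 itself stood at 1371 and 1671 CPM against 3005 and 3008 CPM in WT, a log2 fold change of -0.98 ± 0.25 (SE) that did not pass the test (adjusted p = 0.141, edgeR's quasi-likelihood test). All 10 plasma cell markers had counts in every library, with summed levels from 33670 to 120232 CPM, most of which was Igj (RefSeq symbol Jchain). RNA of other cell types differed between libraries of the same group. The 11 neutrophil and monocyte markers summed to 585 CPM in WT replicate 4 and 1394 CPM in Xbp1KO replicate 2, but to 5.72 CPM in WT replicate 3 and 2.44 CPM in Xbp1KO replicate 1, and the 10 erythroid and megakaryocyte markers split the same libraries, at 405 and 1281 CPM against 42.1 and 11.1 CPM. In batch 1 the erythroid and megakaryocyte markers summed to 41.7 CPM in WT replicate 1 and 42.3 CPM in Blimp1KO replicate 1. They summed to 216 CPM in WT replicate 2 and 215 CPM in Blimp1KO replicate 2. The neutrophil and monocyte markers lay between 251 and 468 CPM in that batch. None of either list was called in either knockout. The 10 mature B cell markers summed to 425 and 405 CPM in Blimp1KO against 187 and 148 CPM in WT, with none called, and to 175 and 186 CPM in Xbp1KO against 181 and 143 CPM in WT, with 1 called higher. The 8 proliferation genes summed to 574 and 667 CPM in Xbp1KO against 226 and 311 CPM in WT, and 3 of them rose. Summed levels of T and NK cell, dendritic cell and stromal markers lay between 8.21 and 132 CPM, and 5 of the 10 T and NK cell markers were at 0 in Xbp1KO replicate 1. In batch 1 the deposited log2 FPKM values filed under replicate 1 matched the count columns of replicate 2 of the same group and the reverse, for WT and for Blimp1KO. This crossing stays within groups, and replicate numbers below are those of the count table.

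**Figure D1:**
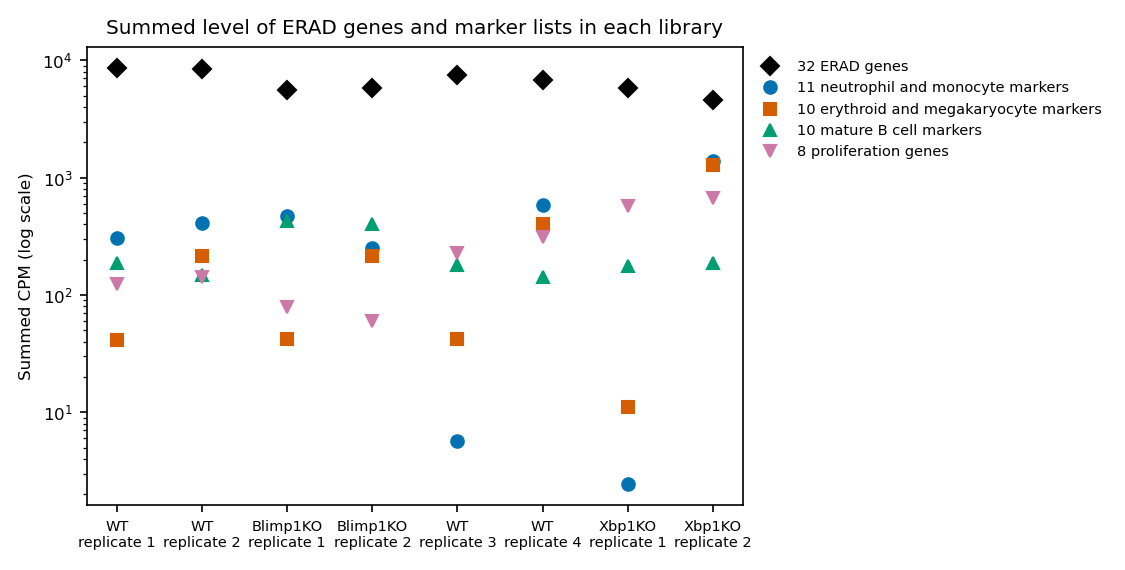
Summed level, in CPM on a log scale, of the 32 ERAD genes and of 4 marker lists in each of the 8 libraries (1 point per list and library). Neutrophil and erythroid markers separate WT replicate 4 and Xbp1KO replicate 2 from the other libraries of their groups, while the ERAD sum lies between 4549 and 8622 CPM throughout.

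Because XBP1 and the stress factor ATF6 are known to bind short ER stress elements, the promoters of the members were searched for such elements. RefSeq promoters of the build GRCm38.p6, cut to the 250 bases before the transcription start, were matched for 26 of the 32 genes. Aup1, Derl1, Erlec1, Rnf139, Rnf5 and Ube2g2 had no entry. The bases just after the start matched a GENCODE transcript of the gene for 22 of the 26. The Edem1 window begins at 108828391, inside the gene, which starts at 108824045, so it does not lie before the gene's first start. The windows of Ufd1l and Ube4b also lie inside their genes, and most of the Ubxn4 window does. Derl2 and Ube2j2 each have a window inside the gene and another before it. Windows of Bag6, Edem3, Man1b1, Ubac2 and Ube4a reach into the gene in part. The 5 sequences below run 5′ to 3′ along the gene's strand, with the fixed letters of each matched element in capitals. Derl3 is shown for an ER stress element (ERSE, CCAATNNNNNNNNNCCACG) on the opposite strand beside a GCCACGT core of the XBP1 binding site. Syvn1 carries an ERSE close to its start, Herpud1 an ERSE-II (ATTGGNCCACG) that overlaps a GCCACGT, and Vimp a lone GCCACGT. Edem2 is shown because none of the elements was in its window. The windows lie at chr10:75893148-75893397 (plus strand) for Derl3, chr19:6046326-6046575 (plus) for Syvn1, chr8:94386179-94386428 (plus) for Herpud1, chr7:66079399-66079648 (plus) for Vimp and chr2:155729476-155729725 (minus) for Edem2.
Derl3: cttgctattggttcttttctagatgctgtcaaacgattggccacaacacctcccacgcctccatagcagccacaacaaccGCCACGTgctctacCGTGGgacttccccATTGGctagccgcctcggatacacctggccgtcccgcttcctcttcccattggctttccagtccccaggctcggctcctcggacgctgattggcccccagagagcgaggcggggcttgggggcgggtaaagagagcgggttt
Syvn1: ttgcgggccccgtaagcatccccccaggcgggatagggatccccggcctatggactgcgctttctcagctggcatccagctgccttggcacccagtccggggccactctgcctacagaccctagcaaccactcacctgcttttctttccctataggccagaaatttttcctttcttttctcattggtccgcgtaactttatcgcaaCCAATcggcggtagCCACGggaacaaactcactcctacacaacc
Herpud1: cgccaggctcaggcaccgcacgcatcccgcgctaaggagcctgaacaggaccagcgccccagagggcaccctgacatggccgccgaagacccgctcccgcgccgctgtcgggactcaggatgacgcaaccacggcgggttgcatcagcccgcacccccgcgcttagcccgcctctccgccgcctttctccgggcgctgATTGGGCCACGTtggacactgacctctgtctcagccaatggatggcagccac
Vimp: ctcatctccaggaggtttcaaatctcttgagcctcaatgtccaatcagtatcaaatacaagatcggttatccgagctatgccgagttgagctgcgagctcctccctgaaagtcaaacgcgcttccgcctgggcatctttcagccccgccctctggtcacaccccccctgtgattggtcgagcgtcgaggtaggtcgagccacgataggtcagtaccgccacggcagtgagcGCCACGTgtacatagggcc
Edem2: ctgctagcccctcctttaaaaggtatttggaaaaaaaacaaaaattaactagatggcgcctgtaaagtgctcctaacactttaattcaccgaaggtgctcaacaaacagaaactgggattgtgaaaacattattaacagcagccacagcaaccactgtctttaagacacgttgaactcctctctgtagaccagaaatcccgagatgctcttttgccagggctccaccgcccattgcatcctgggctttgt

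Both strands were searched for these 3 elements and for TGACGTGG, the core of the unfolded protein response element. The elements share the letters CCACG or ACGT, so a site can count for more than 1 of them, as it does in Herpud1, Ube2j1 and Vcp. An ERSE was found in 2 members, an ERSE-II in 1, TGACGTGG in 2 (Ube2j1 and Vcp) and GCCACGT in 6 (Derl3, Herpud1, Os9, Ube2j1, Vcp and Vimp). At least 1 element was present in 7 of the 26 members, against 2.54% of all 32851 RefSeq promoter windows of that length. The single elements occurred in 0.113% (ERSE), 0.0304% (ERSE-II), 0.563% (TGACGTGG) and 2.02% (GCCACGT) of all windows. Among the members that fell in Xbp1KO, described below, 3 of 6 with a window held an element, and among the others 4 of 20 did. These 20 include Edem1, Ufd1l and Ube4b with their windows inside the gene, and Ubxn4 with most of it inside. For these genes the sequence before the first start was not searched in full. A match of letters describes the sequence and does not show binding.

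In WT plasma cells the ERAD genes spanned a wide range of levels. Compared per length, as CPM per kilobase of gene (RPKM, computed from the counts and the deposited gene lengths), Herpud1 was the highest member in both batches, at 477 RPKM in batch 1 and 327 RPKM in batch 2. Herpud1 encodes a scaffold of the ligase complex. Edem2, a mannosidase-like factor that starts glycan trimming, averaged 417 and 251 RPKM, and Derl3, a Derlin of secretory cells that takes part in the membrane channel, averaged 347 and 258 RPKM. Edem1 (257 and 227 RPKM) and Sel1l (198 and 195 RPKM), the adaptor of the HRD1 ligase, followed. The first 5 members together made up 61.2% of the summed RPKM of all 32 genes in batch 1 and 58.3% in batch 2. The lowest members were Fam8a1, an assembly factor of HRD1, at 4.30 and 5.59 RPKM, and the conjugating enzyme Ube2j2 at 5.74 and 4.23 RPKM. Even so, no member had fewer than 247 counts in any library, and all 32 passed the filter on low counts.

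**Figure D2:**
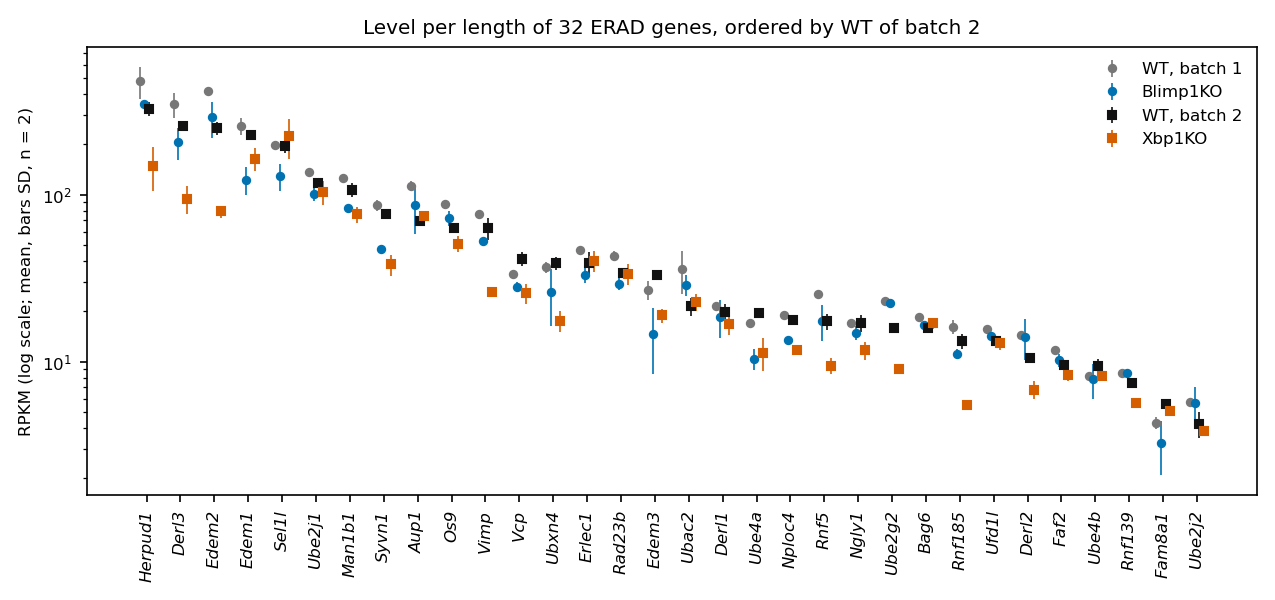
Mean level per length (RPKM, log scale) of the 32 ERAD genes in the 4 groups, ordered by WT of batch 2, with bars showing the SD over 2 libraries. Herpud1, Derl3, Edem2, Edem1 and Sel1l lead in WT, and the Xbp1KO squares of Herpud1, Derl3, Edem2, Syvn1, Vimp and Rnf185 lie apart from their WT squares.

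In Xbp1KO plasma cells 8 of the 32 ERAD genes fell and none rose, at an adjusted p under 0.05 by the quasi-likelihood test of edgeR, adjusted after Benjamini and Hochberg over 15073 genes. Edem2, Derl3, Rnf185, Vimp, Syvn1, Rnf5, Ube2g2 and Nploc4 were lower by 1.51- to 3.16-fold. Over all genes tested, 5.06% fell and 2.63% rose. The estimate was below 0 for 27 of the 32 members, against 44.2% of all genes, and the median log2 fold change was -0.48, against 0.0817 over all genes. Both Xbp1KO libraries lay below both WT libraries for 23 members, against 25.8% of all genes, and above both for Aup1 alone. In these bulk samples, fewer cells of a type and less RNA per cell cannot be told apart. Leaving out WT replicate 3 or Xbp1KO replicate 2 left 0 calls, leaving out WT replicate 4 or Xbp1KO replicate 1 left 2 (Rnf185 and Vimp), and leaving out WT replicate 1 or 2 left 5. Leaving out Blimp1KO replicate 1 or 2, which are not part of this contrast, raised the number of calls among the members and over all genes. The reason was not tested. Further fits left out WT replicate 4 and Xbp1KO replicate 2, the libraries with neutrophil and erythroid RNA, or WT replicate 3 and Xbp1KO replicate 1. Each group of batch 2 then kept 1 library, too few for calls to be read. The log2 fold changes of the 8 genes were then -1.68 to -0.58 or -1.66 to -0.64, near the -1.66 to -0.60 of the full fit. The proliferation genes that rose in Xbp1KO moved with these groups, and their part in the result was not tested.

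**Figure D3:**
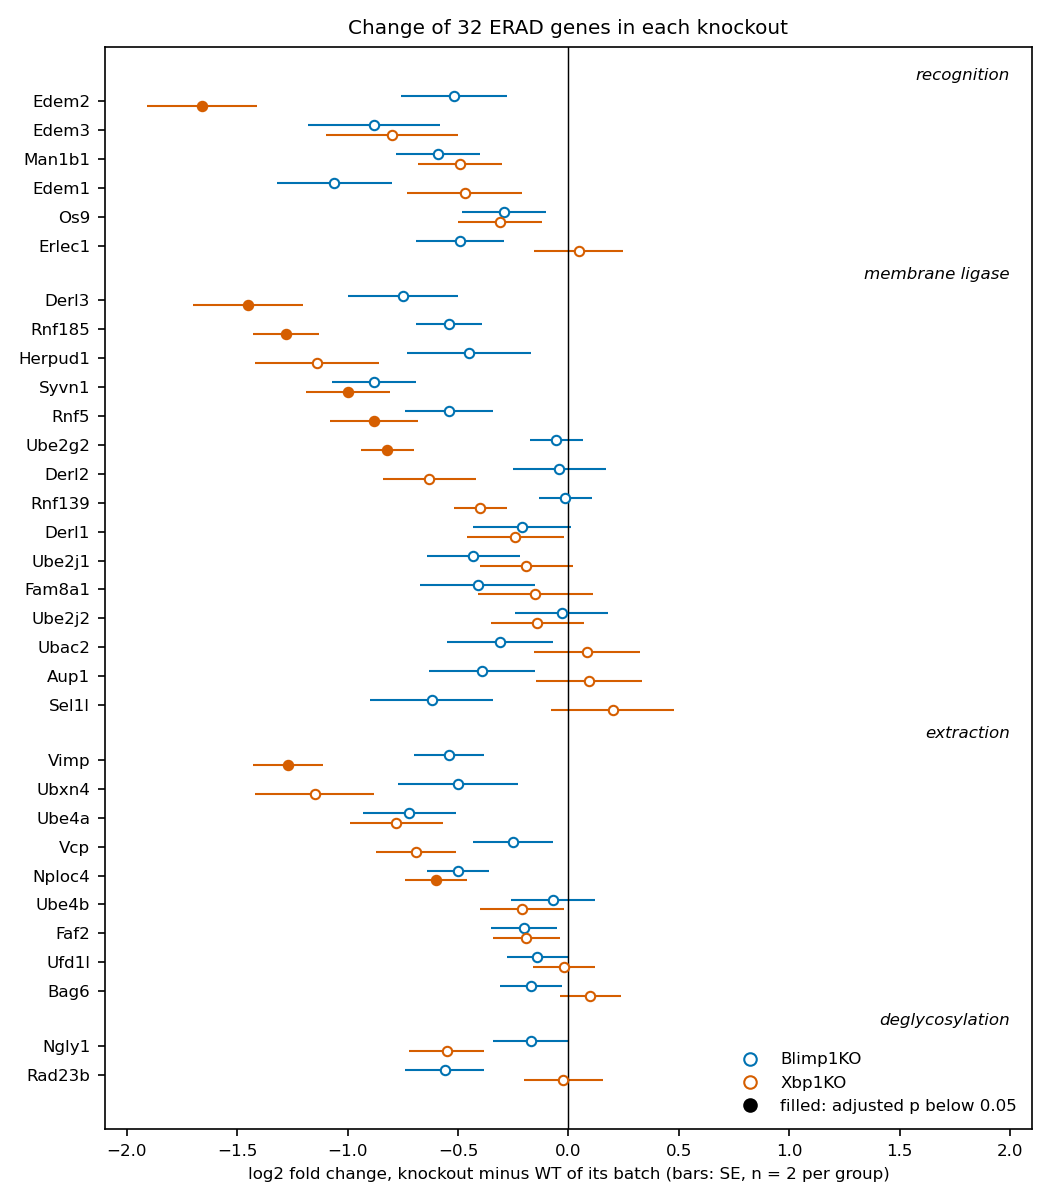
Log2 fold change of each ERAD gene in Blimp1KO (blue) and Xbp1KO (orange) against WT of the same batch, with bars showing the SE (n = 2 libraries per group) and filled points for an adjusted p below 0.05. In Xbp1KO 8 genes are filled, and all 32 Blimp1KO points are open and lie at or below -0.01.

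At the recognition step in batch 2, Edem2 (chromosome 2, 155701673 to 155729475, GRCm38.p6) was the 1 gene of 6 that fell. Its level was 192 and 171 CPM in the Xbp1KO libraries against 611 and 538 CPM in WT, so the groups lay far apart. The log2 fold change was -1.66 ± 0.25 (SE, adjusted p = 0.0122), the largest decrease among the members. Edem1 (chromosome 6, 108824045 to 108859356), a related factor that delivers substrates from the calnexin cycle, was at 1067 and 859 CPM against 1386 and 1276 CPM. These groups also did not overlap, but the log2 fold change of -0.47 ± 0.26 did not pass (adjusted p = 0.339). Edem3, the third member of that family, had 134 and 116 CPM against 222 and 213 CPM (log2 fold change -0.80, adjusted p = 0.160). The remaining recognition genes are the mannosidase Man1b1 and the lectins Os9 and Erlec1, whose log2 fold changes were -0.49, -0.31 and 0.0464, none of them called. Summed over the step, the level was 65.2% of WT.

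Of the 15 membrane ligase genes, 5 fell in Xbp1KO. Syvn1 (chromosome 19, 6046576 to 6053718) encodes HRD1, the central ubiquitin ligase. It was at 154 and 125 CPM against 270 and 290 CPM in WT, with no overlap and a log2 fold change of -1.0 ± 0.19 (adjusted p = 0.0248). Sel1l (chromosome 12, 91806043 to 91849157), the adaptor that stabilises HRD1, was at 1669 and 1146 CPM against 1308 and 1146 CPM. The groups overlapped, because Xbp1KO replicate 2 stood level with WT replicate 4, and the log2 fold change was 0.20 ± 0.28 (adjusted p = 0.728). The sign of that value rested on Xbp1KO replicate 1, since without it the estimate was -0.18.

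Derl3 (chromosome 10, 75893398 to 75895941) was at 142 and 109 CPM in Xbp1KO against 356 and 334 CPM, a log2 fold change of -1.45 ± 0.25 (adjusted p = 0.0204). The other Derlins did not pass, with log2 fold changes of -0.63 for Derl2 (adjusted p = 0.120) and -0.24 for Derl1. Herpud1 (chromosome 8, 94386429 to 94395371) was at 336 and 221 CPM against 654 and 569 CPM. Its libraries did not overlap, yet the log2 fold change of -1.14 ± 0.28 missed the threshold (adjusted p = 0.0591), and it was called in 8 of 22 alternative analyses, DESeq2 among them.

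The other ligases of the ER membrane also fell in part. Rnf185 (chromosome 11, 3415973 to 3452956), a ligase that acts apart from HRD1, was at 16.0 and 15.5 CPM in Xbp1KO against 40.9 and 35.2 CPM in WT. The log2 fold change of -1.28 ± 0.15 had the smallest adjusted p of all members (0.00551). Rnf5 (chromosome 17, 34601099 to 34603561), its close relative, was at 11.2 and 9.59 CPM against 20.7 and 17.6 CPM, a log2 fold change of -0.88 ± 0.20 (adjusted p = 0.0449). For Rnf5, 24.7% of the exon bases are shared with the antisense gene Gm20463 in the GENCODE annotation, and the strand setting of the counting is not stated, so reads of the pair cannot be told apart. Rnf139, which encodes the ligase TRC8, had a log2 fold change of -0.40 (adjusted p = 0.0984), and 22.3% of its exon bases overlap Tatdn1 on the opposite strand.

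Among the ubiquitin-conjugating enzymes, Ube2g2 (chromosome 10, 77622321 to 77645990) fell, at 18.2 and 17.4 CPM in Xbp1KO against 30.9 and 32 CPM (log2 fold change -0.82 ± 0.12, adjusted p = 0.0120). Ube2j1 and Ube2j2, which also serve HRD1 and other ER ligases, had log2 fold changes of -0.19 and -0.14. Aup1, the membrane factor that recruits Ube2g2, was at 115 and 109 CPM against 107 and 103 CPM, the 1 member with both knockout libraries above WT, though its log2 fold change of 0.0923 was smaller than its SE and 23.0% of its exon bases overlap Htra2 on the opposite strand. Fam8a1 and Ubac2, the latter a membrane partner of the ligase gp78, had log2 fold changes of -0.15 and 0.0865. Summed over the step, the level was 80.7% of WT, with Sel1l the largest single contributor in CPM.

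In the extraction step 2 of 9 genes fell in Xbp1KO. Vimp (RefSeq symbol Selenos, chromosome 7, 66079649 to 66089405) encodes a selenoprotein that links p97 to the Derlins. It was at 32.3 and 29.9 CPM against 82.8 and 67.3 CPM, a log2 fold change of -1.27 ± 0.16 (adjusted p = 0.0072). Nploc4 (chromosome 11, 120379798 to 120437700), a p97 cofactor that binds ubiquitin chains, was at 56.4 and 53.2 CPM against 83.6 and 82.1 CPM (log2 fold change -0.60 ± 0.14, adjusted p = 0.0468). Its partner Ufd1l (RefSeq symbol Ufd1) was at 27.8 and 24.2 CPM against 25.6 and 27.2 CPM, so that those groups overlapped.

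Vcp (chromosome 4, 42979964 to 43000507) was at 93.3 and 76.3 CPM in Xbp1KO against 146 and 128 CPM, with no overlap, and its log2 fold change of -0.69 ± 0.18 missed the threshold (adjusted p = 0.0648). Ubxn4, which anchors p97 at the ER, was at 79.3 and 64.5 CPM against 169 and 149 CPM (log2 fold change -1.15 ± 0.27, adjusted p = 0.0519). Ubxn4 was the uncalled member nearest the threshold, and it was called in 13 of 22 alternative analyses. Ube4a, which extends ubiquitin chains, had a log2 fold change of -0.78 (adjusted p = 0.0679). The related enzyme Ube4b, the p97 recruiter Faf2 and the holdase Bag6 had log2 fold changes of -0.21, -0.19 and 0.10. Summed over the step, the level was 64.5% of WT.

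Neither gene of the last step fell. Ngly1 (chromosome 14, 16249314 to 16311926), the glycanase that strips glycans from extracted proteins, was at 37.0 and 31.0 CPM in Xbp1KO against 53.8 and 45.6 CPM, with a log2 fold change of -0.55 ± 0.17 (adjusted p = 0.0987). Rad23b, which carries substrates to the proteasome, was at 140 and 115 CPM against 135 and 124 CPM, and these groups overlapped.

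In Blimp1KO plasma cells no ERAD gene passed the test, while all 32 estimates were below 0. By edgeR's quasi-likelihood test 0 of 32 were called in either direction, 12 had an unadjusted p under 0.05 (13.9% of all genes did), DESeq2 called 5 (Edem1, Man1b1, Syvn1, Nploc4 and Ube4a) and limma-voom none. Over all genes edgeR called 0.285% lower and 0.577% higher. DESeq2 called more genes than edgeR over all genes in this contrast, so its 5 calls cannot be set against these edgeR shares. Within DESeq2, the called share was larger among the members than over all genes, a difference that was not tested. The median log2 fold change of the members was -0.44, against -0.00611 over all genes, of which 50.5% were below 0. Both Blimp1KO libraries lay below both WT libraries for 26 members, against 22.1% of all genes, and above both for none. Summed over all 32 genes, the level was 5542 and 5777 CPM against 8622 and 8454 CPM, or 66.3% of WT. For comparison, the Xbp1KO sums were 5826 and 4549 CPM against 7447 and 6791 CPM, or 72.9% of WT. An exact two-sided permutation test over 2 and 2 libraries gave p = 0.333 for either sum, the smallest value this design allows. Other lists moved with this result, and their part in it was not tested. All 10 plasma cell markers, which include the targeted gene Prdm1, had estimates below 0 in Blimp1KO (median log2 fold change -0.53, none called). Their summed level was 57.3% of WT, and most of that sum was Igj (mean 61087 CPM in Blimp1KO against 108044 CPM in WT). All 8 proliferation genes were also below 0 (none called), at 52.0% of WT. The mature B cell markers summed to 248% of WT, with 9 of 10 estimates above 0. The stromal markers summed to 164%, but most of that sum was Pecam1 (mean 50.9 CPM in Blimp1KO against 26.3 CPM in WT). Of the 8 stromal estimates 5 were below 0, with a median of -0.15. In Xbp1KO the plasma cell markers had 4 estimates below 0 and 6 above, with a median of 0.0946. Of them 1, Mzb1, was called lower there, as were 5.06% of all genes.

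**Figure D4:**
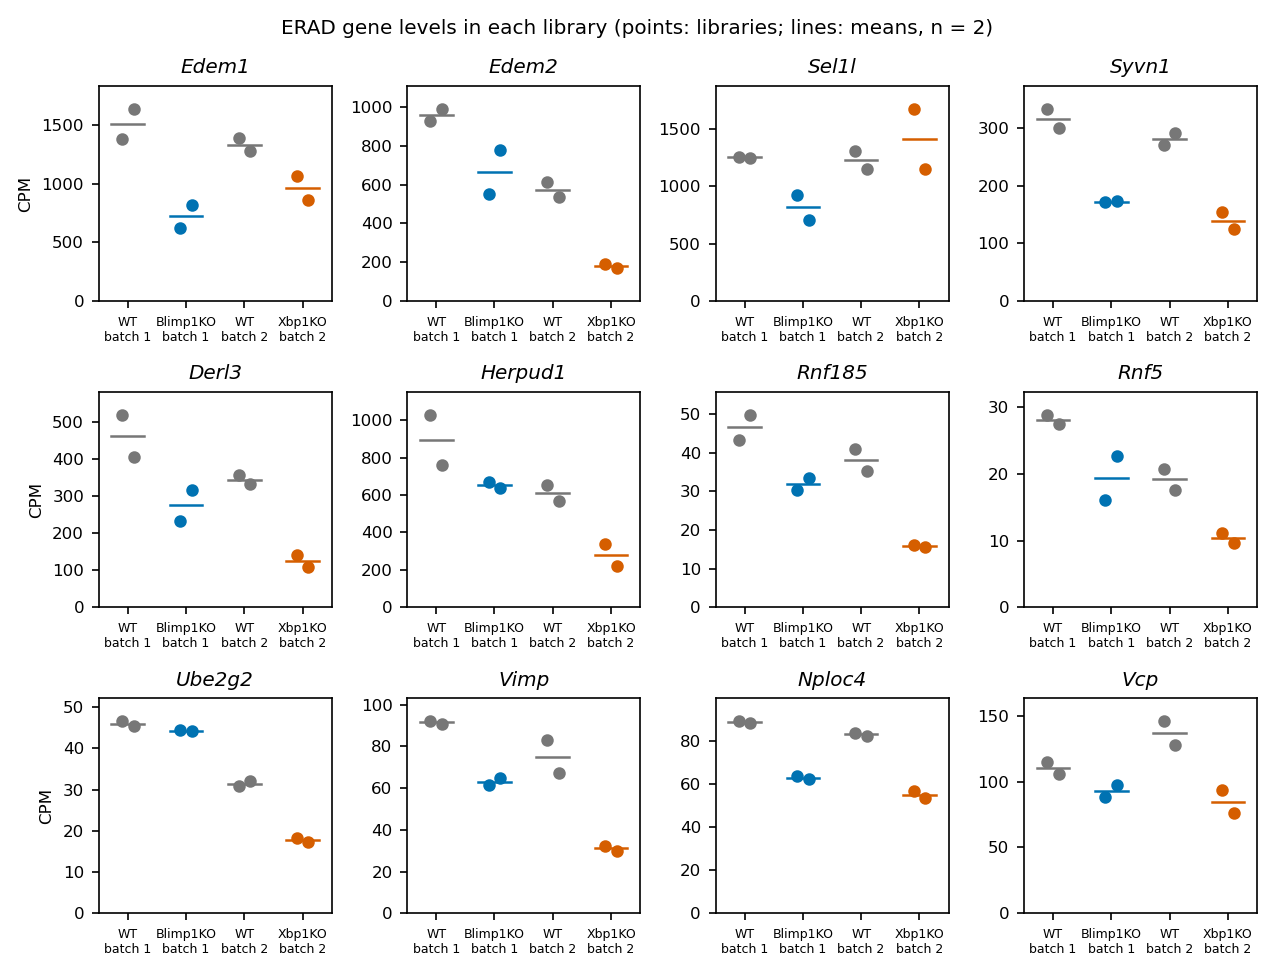
Level in CPM of 12 ERAD genes in each library (points) with group means (lines, n = 2), each panel on its own axis from 0. The means of Edem1 and Sel1l are lowest in Blimp1KO and those of all other genes shown in Xbp1KO. The knockouts come from different batches and WT levels also differ between batches, so this order does not compare the knockout effects.

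By step, the Blimp1KO medians were -0.56 for recognition, -0.41 for the membrane ligase, -0.25 for extraction and -0.37 for the last step. An unadjusted p under 0.05 by edgeR was found for 4 of 6, 4 of 15, 3 of 9 and 1 of 2 genes, against 13.9% of all genes. Edem1 had the lowest estimate, at 624 and 820 CPM in Blimp1KO against 1379 and 1633 CPM in WT (log2 fold change -1.06 ± 0.26, adjusted p = 0.132). Edem2 was at 552 and 780 CPM against 925 and 988 CPM (log2 fold change -0.52 ± 0.24, adjusted p = 0.407). All 6 recognition genes had both Blimp1KO libraries below both WT libraries (22.1% of all genes did), and the sum of the 6 was 60.8% of WT.

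Syvn1 was at 171 and 173 CPM in Blimp1KO against 332 and 299 CPM, with a log2 fold change of -0.88 ± 0.19 (adjusted p = 0.0943), the nearest to the threshold of all members. Sel1l was at 924 and 707 CPM against 1254 and 1246 CPM, a log2 fold change of -0.62 ± 0.28 (adjusted p = 0.397). Both partners of the core ligase thus stood below WT in both Blimp1KO libraries, although neither passed. Derl3 was at 234 and 317 CPM against 519 and 407 CPM (log2 fold change -0.75 ± 0.25, adjusted p = 0.246). Herpud1 was at 672 and 636 CPM against 1027 and 759 CPM (log2 fold change -0.45 ± 0.28, adjusted p = 0.569). Neither gene overlapped between the groups.

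Of the other genes that fell in Xbp1KO, Ube2g2 was at 44.4 and 44.1 CPM in Blimp1KO against 46.6 and 45.4 CPM in WT, a log2 fold change of -0.0557. Rnf185 was at 30.4 and 33.5 CPM against 43.3 and 49.7 CPM (log2 fold change -0.54, adjusted p = 0.163). Rnf5 was at 16.1 and 22.7 CPM against 28.8 and 27.4 CPM (log2 fold change -0.54). None of these ligase-step genes overlapped between the groups, though the gap for Ube2g2 was small. Vimp was at 61.4 and 64.8 CPM against 92.1 and 90.8 CPM (log2 fold change -0.54), and Nploc4 was at 63.5 and 62.0 CPM against 89.0 and 88.2 CPM (log2 fold change -0.50). Vcp was at 88.5 and 97.2 CPM against 115 and 106 CPM (log2 fold change -0.25 ± 0.18, adjusted p = 0.621). In the extraction step 8 of 9 genes had both knockout libraries below WT (22.1% of all genes did), and Ube4b was the exception. Ngly1 was at 46.4 and 40.2 CPM against 47.9 and 49.9 CPM (log2 fold change -0.17 ± 0.17), a difference no larger than its error.

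Whether the knockouts differ in their effect was tested directly, as the Xbp1KO effect minus the Blimp1KO effect, each against its own WT libraries. None of the 32 genes passed by edgeR's quasi-likelihood test, while 1.68% of all genes did. DESeq2 called 3 members and limma-voom none. Over all genes DESeq2 also called more than edgeR in this contrast, so its 3 calls cannot be set against the 1.68%. Within DESeq2, the called share of the members was close to that of all genes. An unadjusted p under 0.05 by edgeR was found for 4 members (15.9% of all genes), so the members did not stand out by this count. These 4 genes, named to account for the count, were Ube2g2 (difference on the log2 scale -0.77 ± 0.17, adjusted p = 0.0820), Rnf185 (-0.74 ± 0.21, adjusted p = 0.139), Edem2 (-1.14 ± 0.34, adjusted p = 0.160) and Vimp (-0.74 ± 0.23, adjusted p = 0.165). In each of them the estimate was lower in Xbp1KO. Sel1l (0.81 ± 0.40, adjusted p = 0.387) and Edem1 (0.59 ± 0.37, adjusted p = 0.505) had estimates that were lower in Blimp1KO. A call in Xbp1KO without one in Blimp1KO is therefore not shown to be a difference between the knockouts for any member.

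WT libraries of the 2 batches were compared in the same way, as the 1 measure of how far the batches differ in 1 genotype. No member passed the comparison of WT batch 2 with WT batch 1, where 2.81% of all genes did. An unadjusted p under 0.05 by edgeR was found for 6 members, against 27.1% of all genes. DESeq2 called 2 members and limma-voom none. Over all genes DESeq2 called more than edgeR here, so its 2 calls cannot be set against the 2.81%. Within DESeq2, the called share was smaller among the members than over all genes. The median log2 difference was -0.24, against -0.0213 over all genes, and the summed level of WT in batch 2 was 83.4% of that in batch 1. Ube2g2 (-0.55 ± 0.12, adjusted p = 0.0639) and Edem2 (-0.73 ± 0.24, adjusted p = 0.126) were both lower in WT of batch 2. These are 2 of the 4 genes named for the difference of effects.

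Ratios within a library do not depend on how libraries are scaled, so the balance of the families was compared as shares of summed RPKM. Edem2 made up 60.8% and 58.3% of the EDEM family in WT of batch 1 and 65.7% and 69.4% in Blimp1KO. In batch 2 it made up 49.7% and 48.4% in WT and 29.3% and 31.3% in Xbp1KO, where Edem1 took 63.7% and 61.4%. Edem2 was thus the first member of the family in all libraries except those of Xbp1KO, and its share was higher in Blimp1KO and lower in Xbp1KO than in WT of the same batch, with no overlap. Derl3 made up 91.4% and 89.6% of the Derlins in WT of batch 1, 86.8% and 86.0% in Blimp1KO, 89.3% and 89.8% in WT of batch 2 and 80.6% and 79.3% in Xbp1KO. Derl3 stayed the main Derlin in every library. Syvn1 per Sel1l was 0.355 and 0.436 in WT of batch 2 and 0.159 and 0.188 in Xbp1KO, and it was 0.456 and 0.414 in WT of batch 1 and 0.319 and 0.422 in Blimp1KO, where the groups overlapped. These shares have 2 libraries a group and were not tested.

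**Figure D5:**
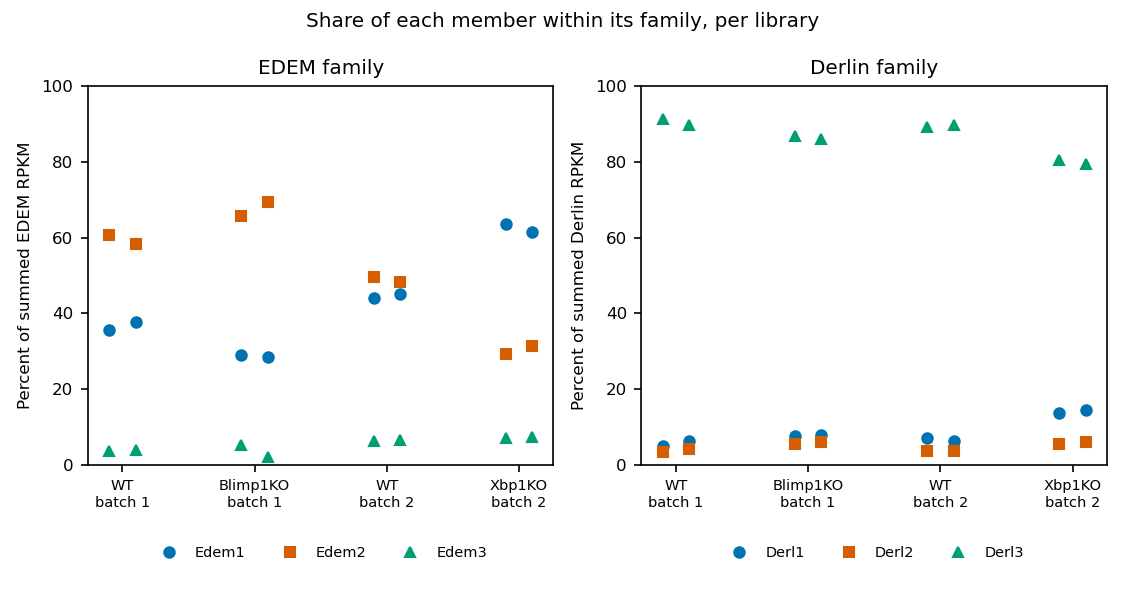
Share of each gene in the summed RPKM of its family, in percent, in each library (points). The Edem2 squares lie below the Edem1 circles in Xbp1KO alone, and Derl3 holds 79.3% or more of the Derlins in all 8 libraries.

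A second list of 50 further ERAD genes, of which 49 were tested, gave 9 that fell and 2 that rose in Xbp1KO, against 5.06% and 2.63% of all genes. This list too was chosen with earlier results of these data known. In Blimp1KO edgeR, DESeq2 and limma-voom each called none, and 8 had an unadjusted p under 0.05 by edgeR (13.9% of all genes). The median log2 fold change was -0.14 in Xbp1KO, against 0.0817 over all genes, and -0.21 in Blimp1KO, against -0.00611. Dnajc10, an ER reductase that unfolds ERAD substrates, was at 30.3 and 27.6 CPM in Xbp1KO against 99.3 and 85.6 CPM in WT (log2 fold change -1.68 ± 0.16, adjusted p = 0.00316 by edgeR's quasi-likelihood test). Sdf2l1, a partner of the chaperone BiP, was at 67.4 and 52.4 CPM against 169 and 178 CPM (-1.54 ± 0.27, adjusted p = 0.0209). Both lay well below their WT libraries. Jkamp, a membrane protein that tethers the proteasome (-0.86 ± 0.13, adjusted p = 0.0136), and the shuttle factor Ubqln2 (-0.72 ± 0.13, adjusted p = 0.0228) also fell. Man2c1, a cytosolic mannosidase that acts on free glycans, rose from 29.2 and 29.8 CPM in WT to 63.0 and 55.8 CPM (1.01 ± 0.13, adjusted p = 0.00787). Ubxn8, which tethers p97 to the ER, rose from 12.2 and 11.1 CPM to 22.9 and 20.9 CPM (0.91 ± 0.14, adjusted p = 0.0138). Without WT replicate 4 and Xbp1KO replicate 2, or without the other pair of batch 2, each group there kept 1 library, too few for calls to be read. All 6 kept their sign in every alternative analysis.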

How the data were processed

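The authors deposited a table of raw counts by Entrez gene, with 8 library columns and the gene lengths in bases, per the file headers, and the counts carry no normalization. They also deposited per-sample log2 FPKM values, per the file headers, whose scaling and offset are not stated. The submitters' processing notes name Subread, featureCounts, limma and the builds GRCm38 and mm10, without versions. Library depth ranged from 44012152 to 145411827 counts. Symbols came from the deposited files (13860 genes) or the RefSeq table (11720), and 1599 genes without a symbol held at most 0.24% of counts.

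Counts were analysed in R 4.3.3 with edgeR 4.0.16: filterByExpr at a minimum count of 10 kept 15073 genes, library sizes were scaled by TMM (factors 0.564 to 2.11), and all 8 libraries entered 1 quasi-likelihood model with 4 group means (4 residual and 3.06 prior degrees of freedom). P-values were adjusted by Benjamini-Hochberg over all genes tested, and a gene was called at an adjusted p under 0.05. SE is the absolute log2 fold change divided by the square root of F. CPM values use the scaled library sizes. The script was tested on simulated counts. Alternatives used DESeq2 1.42.0, limma 3.58.1, other scalings and filters, the log2 FPKM, fewer libraries and pooled WT. Values in every library are given for called genes and for Edem1, Derl3, Syvn1, Sel1l, Herpud1, Vcp and Ngly1, and of the further ERAD genes for up to 4 per direction with the smallest p; values of a few other members were added after they were seen. The members and lists were chosen with earlier results of these data known.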

Additional observations from a re-analysis of the deposited data

Results flagged for a closer look

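Among the further ERAD genes, 2 passed edgeR's quasi-likelihood test for a difference between the knockout effects. The Xbp1KO effect minus the Blimp1KO effect was 1.22 on the log2 scale for Man2c1 (adjusted p = 0.033), which was at 63.0 and 55.8 CPM in Xbp1KO and at 23.9 and 25.6 CPM in Blimp1KO. For Dnajc10 it was -1.82 (adjusted p = 0.0193), with 30.3 and 27.6 CPM in Xbp1KO and 106 and 101 CPM in Blimp1KO. WT levels of both genes were close in the 2 batches, at 28.5 to 29.8 CPM for Man2c1 and 85.6 to 99.3 CPM for Dnajc10. Neither call held without any 1 of the 4 WT libraries, without either Xbp1KO library, or without either pair of batch 2, and that of Man2c1 was also lost with the replicate block in batch 2 (adjusted p = 0.0529).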

How the results depend on the processing

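Of the 32 members, the Xbp1KO comparison called 8, and DESeq2 called 15. DESeq2 also called more genes than edgeR over all genes, in this contrast and in the others below. In Xbp1KO the share that DESeq2 called was larger among the members than over all genes, which was not tested. Leaving out 1 library in turn gave 0 to 14: none without WT replicate 3 or Xbp1KO replicate 2, 2 without WT replicate 4 or Xbp1KO replicate 1, 5 without WT replicate 1 or WT replicate 2, and 11 and 14 when Blimp1KO replicate 1 or 2 was left out. The 2 alternatives chosen after seeing the data, without WT replicate 4 and Xbp1KO replicate 2 and without WT replicate 3 and Xbp1KO replicate 1, gave 0 and 0, and over all genes 59 and 0 calls. The other settings gave 7 to 12. All 8 called genes kept a negative sign in all 22 alternatives. The Blimp1KO comparison called 0 (DESeq2 5, log2 FPKM 2, leaving out 1 library 0 to 1), the difference of effects 0 (DESeq2 3, log2 FPKM 1, leaving out 1 library 0 to 1) and WT against WT 0 (DESeq2 2, log2 FPKM 1, leaving out 1 library 0 to 5). The median of the members ran from -0.47 to -0.30 in Blimp1KO and from -0.70 to -0.36 in Xbp1KO. The replicate block for the numbers shared in batch 1 called 0 members in Blimp1KO and 0 for the difference, as without it. Deviations of same-numbered libraries there correlated at 0.198 over only 2 pairs. The erythroid sums of batch 1 went with these numbers (41.7 and 42.3 CPM against 216 and 215 CPM). The neutrophil sums did not (308 and 468 CPM against 407 and 251 CPM). Whether the numbers pair the libraries is not known, and the main fit did not block them. In batch 2 the labels give WT and Xbp1KO no shared number, but numbers in the deposited files' names set WT replicate 3 beside Xbp1KO replicate 1 and WT replicate 4 beside Xbp1KO replicate 2, whose deviations correlated at 0.572, again over 2 pairs. A replicate block on these pairs, added after seeing the data, called 7 members in Xbp1KO and 0 for the difference: Rnf5 (adjusted p = 0.0511 by edgeR) and Nploc4 (0.0774) were lost and Herpud1 (0.0476) was gained. With blocks in both batches, 8, 0 and 0 members were called in Xbp1KO, Blimp1KO and the difference, with Nploc4 lost (0.10) and Ubxn4 gained (0.0318).

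The sign of some uncalled log2 fold changes near 0 turned, and the cause was not tested. In Blimp1KO, pooled WT gave 0.17 for Derl2, 0.0148 for Ubac2, 0.17 for Ube2j2, 0.19 for Ube2g2, 0.0832 for Rnf139 and 0.0426 for Ubqln2. The fit of the batch alone gave 0.00154 for Derl2, 0.0119 for Ube2j2 and 0.0287 for Rnf139, and upper-quartile scaling gave 0.00187 for Ube2j2 and 0.00812 for Rnf139. DESeq2 gave 0.00444 and relative log expression scaling 0.00438 for Rnf139. Without WT replicate 4 and Xbp1KO replicate 2, Derl2 was at 0.00563, Ube2j2 at 0.0159 and Rnf139 at 0.032. In Xbp1KO, pooled WT gave -0.0897 for Erlec1, 0.0265 for Fam8a1, -0.30 for Aup1, -0.33 for Ubac2 and -0.012 for Bag6. Upper-quartile scaling gave 0.00114 for Ufd1l and the log2 FPKM 0.0173 for Rad23b. Without WT replicate 4 and Xbp1KO replicate 2, Ube2j2 was at 0.0158, Ufd1l at 0.11 and Rad23b at 0.0458, and without the other pair Sel1l was at -0.0137. Leaving out 1 library gave ranges of -0.49 to 0.0806 for Derl1, -0.35 to 0.26 for Derl2, -0.57 to 0.0286 for Ubac2, -0.31 to 0.25 for Ube2j2, -0.0677 to 0.0485 for Rnf139, -0.29 to 0.16 for Ube4b and -0.16 to 0.00932 for Ubqln2 in Blimp1KO. In Xbp1KO the ranges were -0.19 to 0.22 for Erlec1, -0.18 to 0.47 for Sel1l, -0.0251 to 0.16 for Aup1, -0.11 to 0.22 for Ubac2, -0.31 to 0.042 for Ube2j2, -0.20 to 0.10 for Ufd1l, -0.0489 to 0.20 for Bag6 and -0.25 to 0.14 for Rad23b.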
